A study of Mus musculus with 6 samples.

Results

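The transcription factors that define multipotent pancreatic progenitors were followed in dorsal pancreata of E13.5 mouse embryos. The set held 9 genes, chosen by name from the literature on pancreas development: Ptf1a and Gata4 of the branch tips, Sox9, Nkx6-1 and Onecut1 of the trunk, and Pdx1, Gata6, Foxa2 and Mnx1, which are not restricted to either. All 9 were found by symbol among the 24389 genes of the deposited files. The study set 3 libraries of Bicaudal C1 (Bicc1) knockout (KO) dorsal pancreas against 3 wild-type (WT) libraries, to ask how loss of this RNA-binding protein alters the mRNA profile. Both groups were taken at the same embryonic stage and had a mixed C57BL/6 and ICR background. The knockout was not restricted to a tissue by anything the labels state, its allele is not given there, and they do not say whether a library came from 1 embryo or a pool.

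Early pancreatic progenitors express these factors together and can give rise to acinar, duct and endocrine cells. As the epithelium branches, tip cells keep Ptf1a and become acinar, while trunk cells keep Sox9 and Nkx6-1 and become duct and endocrine cells. The fates are held apart in part because Ptf1a and Nkx6 factors repress each other. Several of the genes are also expressed outside progenitors: Pdx1, Nkx6-1 and Mnx1 in beta cells, Foxa2 throughout gut endoderm, and Gata4 and Gata6 in some mesodermal tissues.

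The bases just upstream of 3 of the genes are shown because the library profiles of Ptf1a and Foxa2 lay close together, whereas Onecut1 lay farther from Ptf1a and from Foxa2 than any other of the factors tested did. This contrast was not particular to them: Foxa2 lay nearer still to Sox9, Gata4 and Gata6, and Onecut1 was farthest from Gata4, Sox9, Pdx1 and Gata6 too. The bases were taken from a RefSeq table of promoters of build GRCm38.p6, in which 6 of the 9 genes had an entry, and are the 250 bases before the annotated start. Foxa2 had 3 entries, of which only the one farthest upstream was used. The windows are chr2:19445413-19445662 on the + strand for Ptf1a, chr2:148046970-148047219 on the - strand for Foxa2 and chr9:74861671-74861920 on the + strand for Onecut1. Capitals mark matches, on either strand, to short cores bound by the families of these factors: GATAA for the GATA factors, ATCAAT for the Onecut factors, TAAT for homeodomain factors, TGTTTA for forkhead factors, ACAAAG for the Sox factors and CANNTG for Ptf1a and its relatives (the E-box).
Ptf1a: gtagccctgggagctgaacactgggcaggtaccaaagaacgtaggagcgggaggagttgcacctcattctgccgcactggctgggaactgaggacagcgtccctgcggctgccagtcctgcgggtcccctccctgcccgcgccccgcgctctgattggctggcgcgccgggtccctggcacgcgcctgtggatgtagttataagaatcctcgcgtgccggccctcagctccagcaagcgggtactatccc
Foxa2: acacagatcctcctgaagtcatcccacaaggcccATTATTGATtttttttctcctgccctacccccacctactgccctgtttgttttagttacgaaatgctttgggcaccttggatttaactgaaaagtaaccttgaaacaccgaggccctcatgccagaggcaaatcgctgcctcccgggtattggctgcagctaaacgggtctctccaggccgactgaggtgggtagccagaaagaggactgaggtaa
Onecut1: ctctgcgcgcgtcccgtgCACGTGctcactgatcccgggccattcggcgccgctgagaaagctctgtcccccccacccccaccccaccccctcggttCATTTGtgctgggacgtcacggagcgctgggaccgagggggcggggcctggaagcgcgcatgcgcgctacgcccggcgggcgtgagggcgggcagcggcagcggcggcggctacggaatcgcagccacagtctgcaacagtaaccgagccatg
The Foxa2 window held 1 Onecut core, which 6.72% of 32851 promoter windows of this length hold, and 1 homeodomain core (54.9%), the 2 overlapping in a single run. The Onecut1 window held 2 E-boxes, present in 66.2% of windows, and the Ptf1a window held 0 matches to any of the cores. Over the same set of windows GATAA was present in 22.6%, TGTTTA in 12.0% and ACAAAG in 16.5%. A match is only a run of letters, and its absence says nothing of the factor.

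Each library gives 1 non-negative value per gene, whose unit is not stated, with a floor of 0.01. The values of a library summed to between 674295 and 716255, which are not read totals, so depth is unknown. Apart from sums and averages over fixed lists, values were compared between libraries for 1 gene at a time, since scales may differ between genes. Throughout, per-library values run in the order of the replicate numbers, from KO 1 to KO 3 and from WT 1 to WT 3. The targeted gene Bicc1 gave knockout values of 3.96, 4.91 and 4.48 and wild-type values of 19.7, 19.5 and 18.2, so it was low in each library labelled KO. Its change was -1.89 on log2(value + 1) (adjusted p = 0.00067, limma), and -2.08 when 0.1 was added in place of 1. Of the markers of neighbouring gut tissue, Cdx2 of the intestine was at most 0.0501 in any library, Sox2 of the stomach was 0.721 to 1.20, and Afp, an endoderm and liver gene, was 5.54 to 7.73. Across genes, the first principal component (57.3% of the variance) set KO 1, KO 2 and WT 3 apart from KO 3, WT 1 and WT 2, a contrast that followed GC content (Spearman's rho of 0.40 to 0.61 and of -0.66 to -0.19 between GC content and a gene's deviation). The transcripts of the 9 factors are 49.3% to 59.0% GC, above the median of 49.3% of tested genes in 8 of 9, so values corrected for GC content are given beside the uncorrected ones where they differ.

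None of the factors passed the test for a difference between KO and WT (0 of 8 tested), and Gata6, Ptf1a, Sox9 and Foxa2 had the lowest KO levels relative to WT. Differences were tested on log2(value + 1) in limma's moderated test across the 13911 genes whose values averaged 1 or more, with Benjamini-Hochberg adjustment and a threshold of 0.05. Over all genes 2 passed (0.0144%). Mnx1, with a mean value of 0.967, lay under the filter and was fitted only without it, so that 8 factors were tested. At an unadjusted p of 0.05, 2 of the 8 passed, Gata6 and Ptf1a, beside 10.3% of all genes. The lowest adjusted p among the 8 was 0.469, and 6 of the 8 had a log2 change below 0 (46.5% of all genes did). Their median log2 change was -0.15, where that of all genes was 0.014. After GC correction 7 of the 8 changes were below 0 (53.1% of 13385 genes), with a median of -0.28 against -0.0089 over all genes. In that fit 6 were at an unadjusted p under 0.05 (8.6% of all genes) and again 0 passed after adjustment (0.0299%). Without KO 2, 8 of the 8 were below 0 (48.9% of all genes; median of the 8, -0.26), and without KO 3, 4 of the 8 (48.8%; median -0.024). Since the RNA came from whole dorsal pancreata, fewer cells that express a gene and less RNA per cell cannot be told apart.

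**Figure D1:**
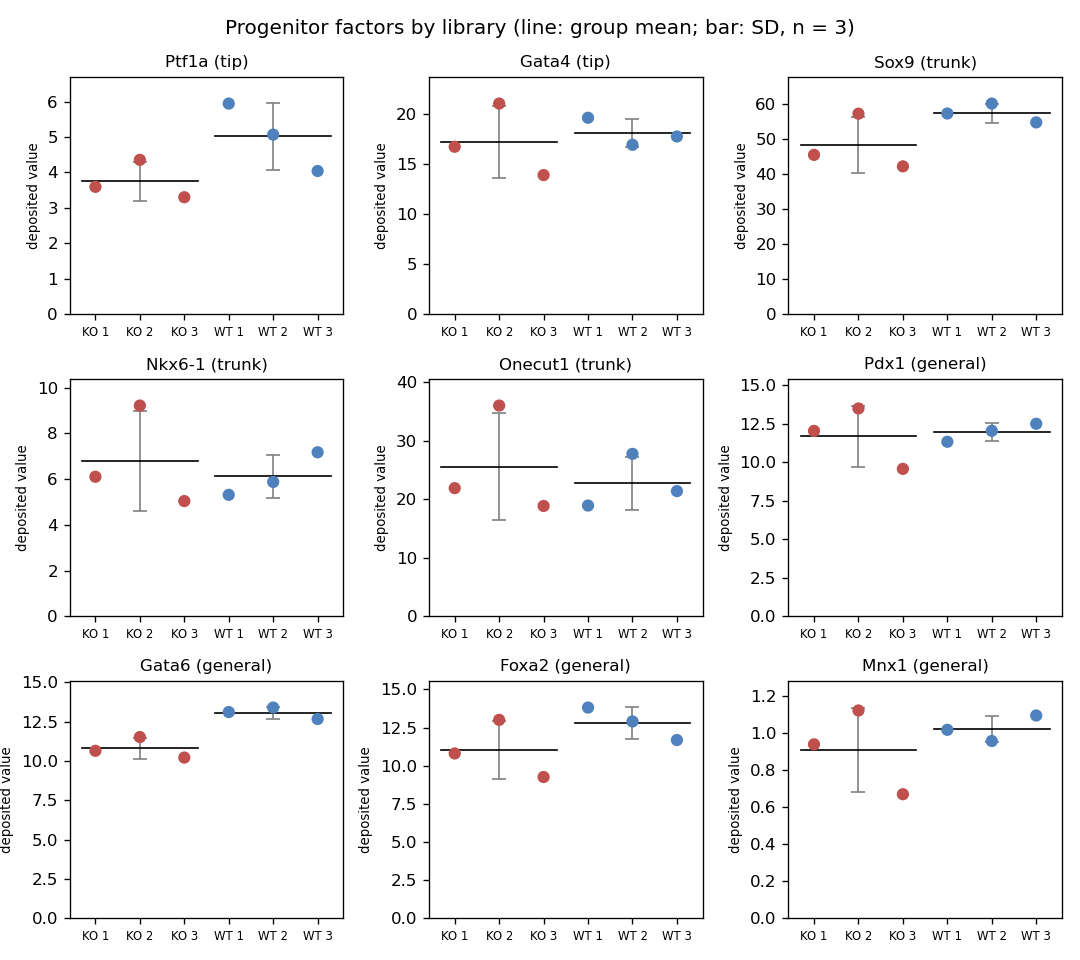
Deposited value (y axis, unit not stated, from 0) of the 9 factors in each library (x axis, KO red, WT blue), with the mean as a line and the SD as a bar (n = 3 each). KO 3 is the lowest point in every panel, and Gata6 is the only factor whose KO points all lie below its WT points.

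Among the tip factors, Ptf1a had the lower KO mean by the wider margin. Ptf1a (ENSMUSG00000026735) encodes a basic helix-loop-helix protein needed for pancreas formation and later for acinar genes. Knockout libraries gave 3.59, 4.36 and 3.30, wild-type libraries 5.94, 5.07 and 4.04. The groups overlapped only because KO 2 lay above WT 3. Means were 3.75 ± 0.545 for KO and 5.02 ± 0.952 for WT (SD over 3 libraries), a ratio of 74.8%. The log2 change was -0.33 (SE 0.14, 95% interval -0.66 to -0.014), with an adjusted p of 0.469 in limma. After GC correction it was -0.52, with an adjusted p of 0.546, and it was -0.40 when 0.1 was added to the values in place of 1. KO 1 and KO 2 differed from WT 3, on the same side of the first component, by -0.023, and KO 3 from WT 1 and WT 2 by -0.59. An antisense gene, Ptf1aos, overlaps 40.4% of the exonic bases of Ptf1a in the reference annotation, and strand is not marked by the kit used. That gene had a mean value of 0.102 in the files.

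Gata4 (ENSMUSG00000021944), a zinc finger factor that becomes confined to tips, differed little in mean. Knockout values were 16.8, 21.1 and 13.9 and wild-type values 19.7, 17.0 and 17.8. The KO libraries held both the highest and the lowest value, and their mean of 17.3 ± 3.60 (SD over 3 libraries) was 95.2% of that in WT, 18.1 ± 1.38. The change of -0.084 (95% interval -0.41 to 0.24; adjusted p = 0.797 in limma) turned to 0.052 without KO 3. After GC correction it was -0.28.

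Of the trunk factors, Sox9 had a lower mean in KO, and Nkx6-1 and Onecut1 a higher one that rested on KO 2. Sox9 (ENSMUSG00000000567) encodes an HMG-box factor that maintains progenitors and is later kept in ducts. Its knockout values, 45.5, 57.3 and 42.3, compared with 57.4, 60.2 and 54.8 in the wild type. KO 1 and KO 3 lay below all WT libraries and KO 2 among them. The log2 change was -0.25 (SE 0.11, 95% interval -0.52 to 0.013), with an adjusted p of 0.469 in limma, and was -0.38 without KO 2 and -0.17 without KO 3. Split by that component, it was -0.10 in KO 1, KO 2 and WT 3 and -0.47 in KO 3, WT 1 and WT 2.

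Nkx6-1 (ENSMUSG00000035187) encodes a homeodomain factor that promotes trunk over tip identity and is later needed in beta cells. Knockout libraries gave 6.11, 9.22 and 5.04, wild-type libraries 5.31, 5.88 and 7.18. KO 2 was the highest of all and KO 3 the lowest, with all WT values between them. The KO libraries averaged 110.9% of the WT libraries, with a log2 change of 0.10 (95% interval -0.35 to 0.55; adjusted p = 0.823 in limma). It was -0.11 without KO 2, -0.13 after GC correction and -0.033 with a term for the side of that component. Ins2, which marks beta cells, was also highest in KO 2, at 23.5 against 2.11 to 10.1 in the other libraries, and the part of beta cells in the value of Nkx6-1 was not tested.

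Onecut1 (ENSMUSG00000043013), also called Hnf6, is a cut homeodomain factor that acts upstream of Pdx1 and of Neurog3 and is needed for ducts. Its knockout values, 21.9, 36.0 and 18.9, compared with 18.9, 27.8 and 21.4 in the wild type. KO 2 stood above all other libraries, and KO 3 was level with WT 1 at the low end. It was the most variable of the 9 between libraries of a group, with a coefficient of variation of 35.8% in KO and 20.1% in WT. The log2 change of 0.13 (95% interval -0.42 to 0.68; adjusted p = 0.813 in limma) turned to -0.13 without KO 2. In the reference annotation a non-coding gene on the same strand, Gm20649, overlaps 52.8% of the exonic bases of Onecut1. It was not used here, and how reads of the shared bases were assigned is not given in the sources used here.

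Among the factors not restricted to tip or trunk, Gata6 was the one that separated the groups. Gata6 (ENSMUSG00000005836), a zinc finger factor that acts with Gata4 in pancreas formation, had knockout values of 10.6, 11.5 and 10.2 and wild-type values of 13.1, 13.4 and 12.7. The highest KO library was still below the lowest WT library, a pattern found in 8.77% of all genes tested. Group means were 10.8 ± 0.664 in KO and 13.05 ± 0.367 in WT (SD over 3 libraries), a ratio of 82.7%. Gata6 did not pass limma over all genes, at a log2 change of -0.25 (SE 0.073, 95% interval -0.42 to -0.085; adjusted p = 0.469). After GC correction the change was -0.40, with an adjusted p of 0.381, and over 16 alternatives it stayed between -0.40 and -0.22. On one side of the first component (KO 1, KO 2 and WT 3) it was -0.18, and on the other -0.35.

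Foxa2 (ENSMUSG00000037025) encodes a forkhead factor that opens endoderm chromatin and binds enhancers of Pdx1. Knockout libraries gave 10.8, 13.0 and 9.26, wild-type libraries 13.8, 12.9 and 11.7. KO 1 and KO 3 were below all WT libraries, and KO 2 was above WT 2 and WT 3. The log2 change of -0.21 (SE 0.12, 95% interval -0.49 to 0.080) had an adjusted p of 0.492 in limma. It was -0.40 after GC correction, -0.32 without KO 2 and -0.099 without KO 3. KO 1 and KO 2 differed from WT 3 by 0.020, and KO 3 from WT 1 and WT 2 by -0.48.

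Pdx1 (ENSMUSG00000029644), the homeodomain factor without which the pancreas does not grow beyond a bud, had nearly the same mean in both groups. Knockout values were 12.0, 13.49 and 9.57, and wild-type values 11.3, 12.0 and 12.5. As for Nkx6-1, KO 2 was the highest and KO 3 the lowest of all. The average was 11.7 ± 1.98 in KO, which is 97.8% of the 11.95 ± 0.588 in WT (SD over 3 libraries). The log2 change of -0.040 had a 95% interval from -0.32 to 0.24 and an adjusted p of 0.891 in limma. It was 0.086 without KO 3 and -0.14 without KO 2, and -0.20 after GC correction.

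Mnx1 (ENSMUSG00000001566), a homeodomain factor needed to start the dorsal bud, had low values, 0.940, 1.12 and 0.670 in the knockout and 1.02, 0.957 and 1.10 in the wild type. The KO libraries again held both extremes. Fitted without the filter on low values, its log2 change was -0.089 (95% interval -0.33 to 0.15), with an adjusted p of 0.749 in limma, and on log2(value + 1) changes at so low a level are understated.

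**Figure D2:**
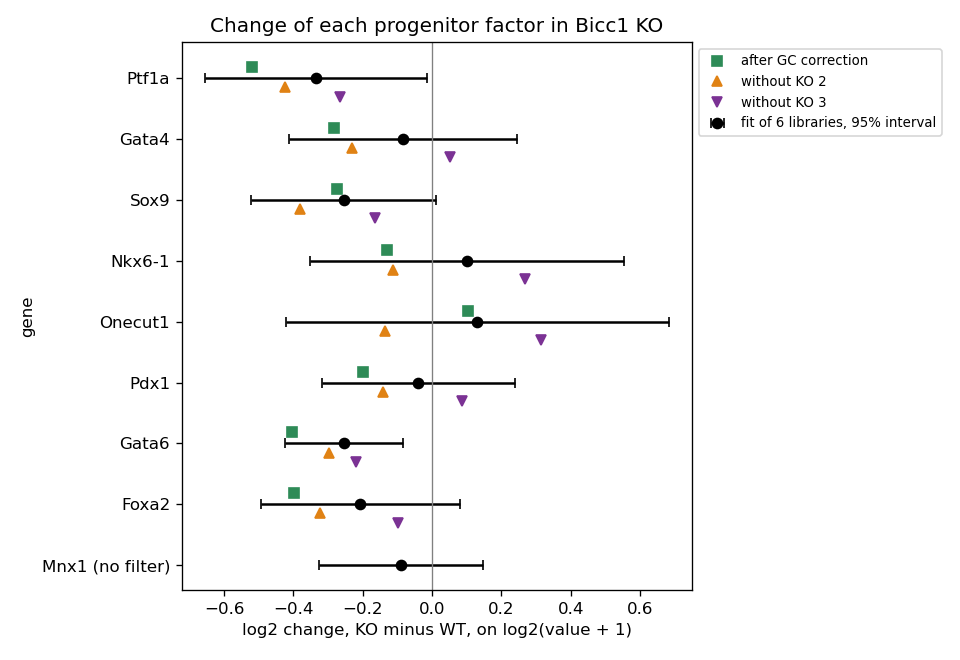
Log2 change, KO minus WT, on log2(value + 1) (x axis) for each factor (y axis), as circles with 95% intervals from the fit of 6 libraries (Mnx1 from the fit without a filter); squares are values after GC correction, and triangles values without KO 2 (pointing up) or without KO 3 (pointing down). For each of the 8 tested factors the value without KO 2 lies to the left of the value without KO 3. This follows from KO 2 being their highest and KO 3 their lowest KO library. Gata6, Ptf1a, Sox9 and Foxa2 lie below 0 in all 4 values.

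What the 9 factors shared was the order of the KO libraries. KO 3 had the lowest value of all 6 libraries for 9 of 9 factors (11.7% of all genes tested; for Onecut1 by a hair below WT 1), and KO 2 was the highest and KO 3 the lowest of the KO libraries for 9 of 9 (28.0%). The spread was wider in KO than in WT for 8 of 9 factors by coefficient of variation (48.8% of all genes), Ptf1a being the exception. Averaged over the 9 factors, log2(value + 1) deviated from the mean of the libraries by -0.096, 0.21 and -0.28 in the knockout libraries and by 0.054, 0.087 and 0.031 in the wild-type libraries. In this average the WT libraries thus lay within a narrow range and the KO libraries on both sides of it. Single factors varied more between WT libraries, Ptf1a from -0.076 to 0.39 and Onecut1 from -0.30 to 0.23. The difference between the group means, -0.11, was smaller than the SD of the KO libraries, 0.25.

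Epithelial markers had the same order of KO libraries. For all 18 of them KO 2 was the highest and KO 3 the lowest of the KO libraries, and 13 of 18 were lowest in KO 3 among all 6. The coefficient of variation was larger in KO for 17 of the 18. Beta cell, neural, other progenitor, tip and acinar, and trunk and duct lists had this order of KO libraries too in their mean deviation. Endocrine, mesenchymal, mesothelial and gut or liver lists did not. Cdh1, the epithelial cadherin, gave 104, 130 and 87.6 in the knockout and 112 to 119 in the wild type. Epcam, an epithelial adhesion molecule, was 50.9, 64.3 and 44.8 in KO and 52.4 to 60.7 in WT. Summed over the 18 markers the values ran from 454.8 to 728 in KO and from 521 to 625 in WT, and none was at the floor throughout. Mesenchymal markers deviated by 0.18 in KO 3 and by between -0.053 and -0.028 in the other libraries (mean of the 14 genes tested). Summed over all 16 listed, their values ran from 785 to 868 in KO and from 845 to 869 in WT. Tlx1, a spleen mesenchyme factor picked after its values were seen, was 8.71 in KO 3 and at most 3.15 elsewhere. Being among the 14, it made up a large part of their mean deviation of 0.18 in KO 3. Among mesothelial markers, Wt1 was 25.1 in KO 3 and at most 15.4 elsewhere, whereas Upk3b and Lrrn4 were highest in WT 3, at 11.3 and 7.68 (these 3 were also picked after their values were seen). The part of these cell types in the values of the progenitor factors was not tested.

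**Figure D3:**
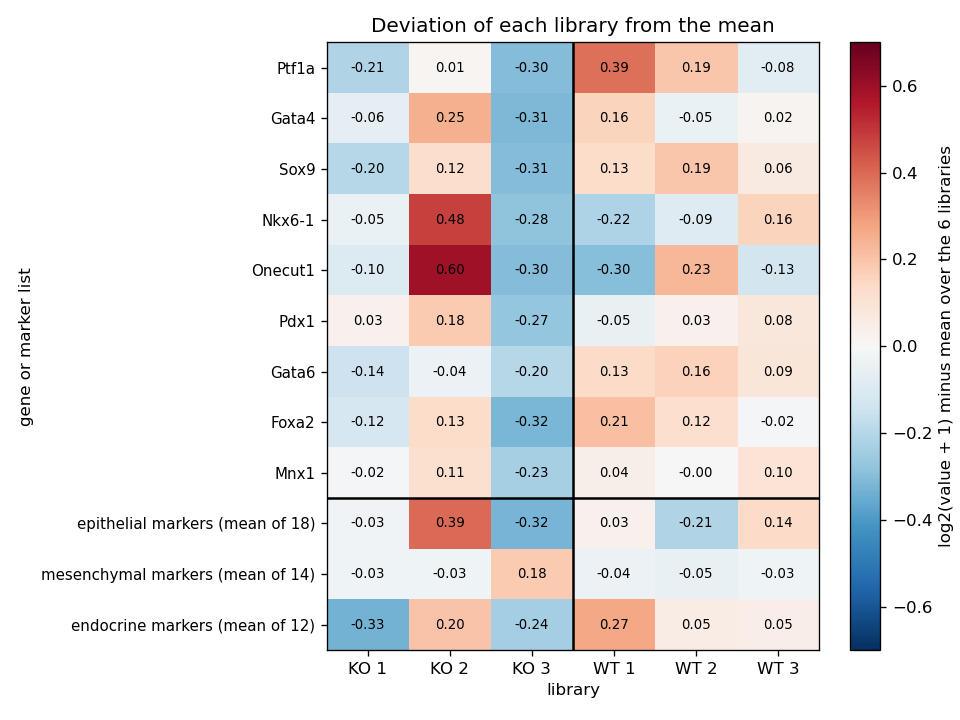
Deviation of log2(value + 1) in each library (x axis) from the mean of the 6 libraries (colour and number), for the 9 factors and, under the line, for the means of epithelial, mesenchymal and endocrine markers (y axis). KO 3 is negative in all 9 rows of factors and in the epithelial row, whereas KO 2 is positive in all but Gata6, which is at -0.04.

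Set against the epithelial markers, Gata6 no longer separated the groups. The mean log2 deviation of the 18 markers was subtracted from each factor in each library, which moves every KO minus WT difference by the same 0.030 and changes the spread. For Gata6 this gave -0.12, -0.43 and 0.13 in the knockout libraries and 0.10, 0.37 and -0.050 in the wild-type libraries, KO 3 lying above WT 1 and WT 3. Ptf1a then had a KO minus WT difference of -0.36, Sox9 and Gata6 of -0.28 each, and Foxa2 of -0.24. For Gata4, Mnx1 and Pdx1 it was -0.11, -0.12 and -0.070, and for Nkx6-1 and Onecut1 0.072 and 0.10. For Ptf1a the SD over 3 libraries was 0.20 in KO and 0.34 in WT, so the difference was close to the spread between libraries. In limma with this scaling 0 of the 8 tested factors passed, beside 16 of all 13911 genes (0.115%). At an unadjusted p of 0.05 the counts were 0 of the 8 and 201 of all genes (1.44%). Subtracting the markers changed the spread in both directions. For the mean of the 9 factors the SD went from 0.25 to 0.12 in KO and from 0.028 to 0.20 in WT. In limma the SE became 0.26 to 0.27 for each of the 8 tested factors, that of Gata6 having been 0.073. These counts therefore cannot decide whether the factors differ from all genes. The scaling moved the median of all genes from 0.014 to -0.015.

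The balance of tip to trunk factors overlapped between the genotypes. The mean deviation of the 2 tip factors minus that of the 3 trunk factors was -0.022, -0.27 and -0.013 in the knockout libraries and 0.40, -0.039 and -0.058 in the wild-type libraries. The groups overlapped, with means of -0.10 ± 0.14 (KO) and 0.10 ± 0.26 (WT; SD over 3 libraries), and WT 1 alone was well above 0. Of 9 tested tip and acinar genes, 3 had log2 changes above 0 and 6 below (median -0.018), and of 11 trunk and duct genes 5 were above and 6 below (median -0.015), with 0 past the threshold in either list. After GC correction these medians were -0.15 and -0.096. Dcdc2a, a doublecortin-domain gene, averaged 5.09 ± 1.74 in the knockout and 6.81 ± 0.878 in the wild type (SD over 3 libraries). Myc, a transcription factor of cell growth in the tip list, had means of 48.0 ± 7.41 and 50.8 ± 0.740. Anxa2, a membrane-binding annexin of ducts and other tissues, had means of 31.5 ± 1.81 in KO and 25.0 ± 2.53 in WT, and was one of the genes with all KO values above all WT values (7.67% of all genes), with an adjusted p of 0.469 in limma.

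Among 22 other factors of the progenitor network, 18 were tested and 0 passed limma over all genes. In 13 the log2 change was below 0 (46.5% of all genes) and in 5 above, with a median of -0.060 that was -0.15 after GC correction. Hes1, the Notch effector that holds progenitors undifferentiated, had knockout values of 15.7, 17.3 and 15.7 and wild-type values of 19.2, 19.1 and 19.1, so the groups were apart, as they are in either direction in 16.4% of all genes. Nkx2-2, a homeodomain factor of progenitors and endocrine cells, was 15.4, 23.1 and 13.7 against 23.8, 20.1 and 25.1. Sox11, a factor of immature cells, averaged 1.87 ± 0.341 in the knockout and 1.31 ± 0.236 in the wild type, and Tcf7l2, a Wnt pathway factor, was 3.09 ± 0.539 and 3.88 ± 0.531 (SD, n = 3 each). Nr5a2, an orphan receptor that works with Ptf1a in acinar cells, was 20.0 ± 3.22 and 23.3 ± 2.50. Foxa1, Onecut2, Onecut3 and Nkx6-2, relatives of the factors chosen after their values were seen, lay under the filter and were not tested. They were at no more than 0.197, 0.176, 0.588 and 0.629 in any library.

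Genes that these factors are known to bind or control were also tested. Of 12, 9 had log2 changes below 0 (46.5% of all genes) and 3 above, 0 passed, and the median was -0.11, or -0.17 after GC correction. The groups did not overlap, with KO below, in 3 of the 12 (8.77% of all genes). Slc2a2, the glucose transporter made by early progenitors and later by beta cells, had knockout values of 17.0, 17.6 and 14.8 and wild-type values of 21.5, 22.1 and 20.8. Each KO library was lower than each WT library. The change, -0.37 on the log2 scale (SE 0.082), did not pass limma over all genes (adjusted p = 0.469). Fgfr2, the receptor through which mesenchymal Fgf10 maintains progenitors and which acts in a loop with Sox9, was 779, 913 and 785 in KO and 1008, 925 and 928 in WT. Here KO 2 came close to the WT libraries. Neurog3, which needs Sox9 and Onecut1, was the third of these, at 34.0, 50.9 and 35.1 in KO and 66.4, 55.4 and 58.3 in WT (log2 change -0.59; adjusted p = 0.469 in limma). Cpa1, a Ptf1a target of tip cells, went the other way at 266 ± 48.8 against 236 ± 39.9 (SD, n = 3 each).

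For 10 of 12 endocrine markers the log2 change was below 0 (46.5% of all genes), and 0 passed limma over all genes. The median was -0.22, or -0.33 after GC correction. After Neurog3, the markers with the lowest unadjusted p were Insm1 (8.75 ± 2.17 in KO and 13.0 ± 1.27 in WT), Neurod1 (14.6 ± 3.85 and 19.8 ± 2.66) and Rfx6 (1.73 ± 0.441 and 2.30 ± 0.326; SD, n = 3 each), all factors of endocrine differentiation. GC correction took the log2 changes of Neurog3 and Insm1 from -0.59 and -0.54 to -0.79 and -0.82. It took those of Neurod1 and Rfx6 from -0.43 and -0.28 to -0.37 and -0.23. In this list KO 1 was the lowest library on average, at a deviation of -0.33, and KO 3 at -0.24, unlike in the progenitor factors, where KO 3 was lowest. Epithelial markers split evenly, with 9 higher and 9 lower means of 18 and a median of -0.026, which was -0.15 after GC correction. In that list Krt19 (6.32 ± 2.20 and 3.70 ± 1.59) was higher, and Esrp1 (23.9 ± 3.20 and 28.1 ± 2.78), Esrp2 (9.31 ± 1.65 and 10.5 ± 0.856) and Grhl2 (9.59 ± 1.91 and 10.8 ± 0.897) were lower in KO, and 0 of the 18 passed. Of 14 mesenchymal markers 7 had higher and 7 lower means (median 0.0031, or -0.12 after GC correction), and in 6 the groups did not overlap, 3 with KO above and 3 with KO below (16.4% of all genes in either direction). Nkx3-2 (2.29 ± 0.271 and 0.981 ± 0.431), Barx1 (3.69 ± 1.17 and 1.78 ± 0.815) and Pdgfrb (30.7 ± 1.72 and 24.6 ± 2.33) had higher means in KO, and Dcn (45.0 ± 6.52 and 66.2 ± 8.69) a lower one, with 0 past the threshold. GC correction took the log2 changes of Nkx3-2, Barx1 and Pdgfrb from 0.75, 0.77 and 0.31 to 0.40, 0.45 and 0.17.

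**Figure D4:**
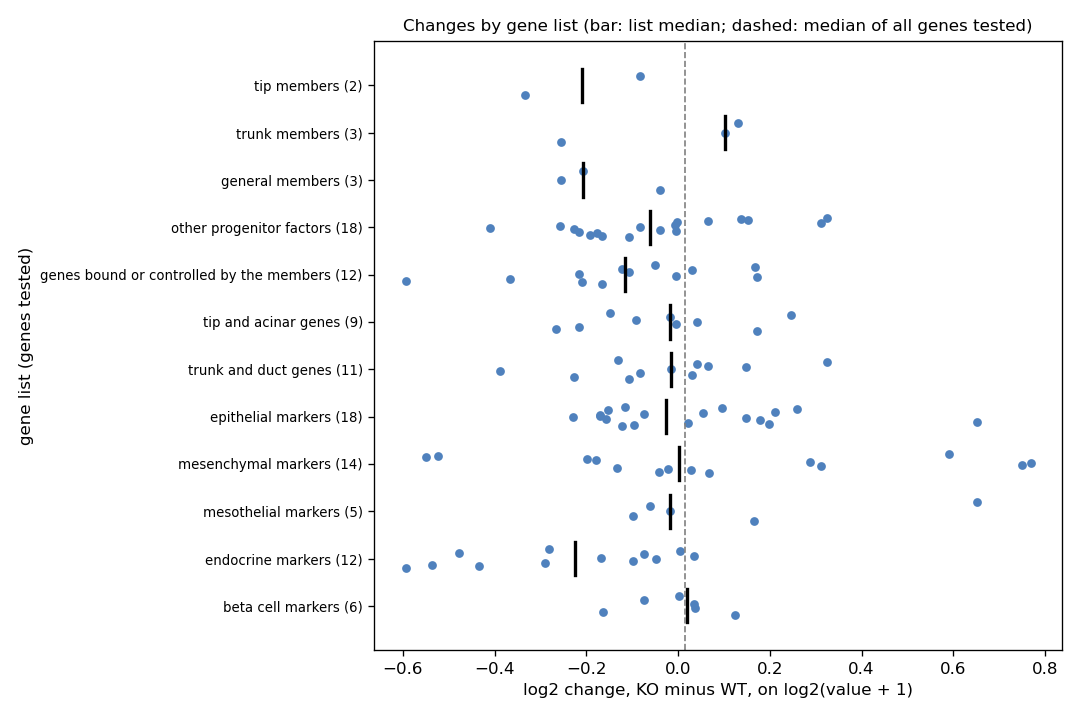
Log2 change, KO minus WT, on log2(value + 1) (x axis) of each tested gene of 12 lists (y axis, number tested in brackets), with the list median as a bar and the median of all genes tested, 0.014, as a dashed line. Medians lie furthest to the left for endocrine markers and for the tip and general factors, and the single genes lie on both sides of 0 in every list but the tip and general factors.

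The factors were compared with each other and with all other tested genes by the distance between their profiles, that is, the Euclidean distance over the 6 libraries of log2(value + 1) centred on each gene's mean. With 6 points, many genes are close to any profile, so this is a description. Sox9 and Foxa2 were nearest to each other, at 0.16, where the median distance of Sox9 to all genes was 0.53, and Foxa2 was the 25th nearest of 13910 genes to Sox9. Foxa2 was also the nearest factor to Ptf1a (0.25, the 35th nearest gene) and to Gata4 (0.22, the 125th). For Gata6 the nearest factor was Sox9 (0.21), for Pdx1 it was Gata4 (0.26) and for Nkx6-1 it was Pdx1 (0.38), and these ranked only 627th, 613th and 744th among all genes. Onecut1 was nearest to Nkx6-1 (0.46), the 46th nearest of all genes to it, and farthest from Ptf1a (0.91). Sox9, grouped with the trunk factors by its role, had a profile nearer to each of the other tested factors than to Nkx6-1 (0.60) or Onecut1 (0.67). Onecut1 was also the factor farthest from Ptf1a, Gata4, Pdx1, Gata6 and Foxa2, so its distance was not particular to Sox9.

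Among other genes whose values averaged 5 or more, the nearest to Gata4 were Epcam (0.063) and 5330417C22Rik, and the nearest to Gata6 were Hes1 (0.073) and Zmpste24, a protease gene. Nkx6-1 was nearest to the epithelial protease gene St14 (0.14) and to Gm16425, and Pdx1 to the amino acid transporter gene Slc38a5 (0.084) and to Gulo. For Foxa2 these were Chst2, a sulfotransferase gene (0.058), and Igsf11, and for Sox9 Ide, which encodes the insulin-degrading enzyme (0.12), and Pcyt1b. Ptf1a was nearest to Map2 (0.14) and Dmd, and Onecut1 to Erich5 (0.24) and a gene without a symbol. Gata4 lay at a median distance of 0.31 from the epithelial and 0.73 from the mesenchymal markers, and Pdx1 at 0.37 and 0.64. For Gata6 the median distance was 0.62 to the epithelial markers, 0.52 to the mesenchymal ones and 0.43 to all genes, and for Ptf1a it was 0.70, 0.62 and 0.62.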

How the data were processed

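Dorsal pancreas RNA (column kit, TruSeq v2 libraries without strand marking, per the labels' protocols) was measured in 3 KO and 3 WT libraries, grouped and numbered by the labels. The submitters' processing notes name CASAVA 1.82, Bowtie 0.12.7 and mm9. How genes were annotated, counted and normalized is not given in the sources used here. Each deposited file holds 1 signal per gene, without a stated unit, so counting error and depth are unknown. As the origin of the replicates is not stated, p-values reflect the spread between libraries, which may be technical. Symbols were found for 22624 of 24389 identifiers (92.8%).

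The deposited signal was used unscaled on log2(value + 1) for genes with a mean of at least 1, in limma 3.58.1 (R 4.3.3, mean-variance trend, two-sided). The exact test of 3 against 3 cannot give a p under 0.1. The factors and lists were chosen with earlier results of these data known, so no list was tested as a set. Named are Bicc1, the 9 factors, up to 4 genes of lowest p in a list, Cpa1, Neurog3, Nr5a2, Hes1, Cdh1 and Epcam, and the nearest genes by profile. Some genes that the rule selects are not reported here. Ins2, Cdx2, Sox2 and Afp were named from marker lists after their values were seen. Beta cell, mesothelial, neural and gut or liver lists had 6, 5, 6 and 1 genes tested, 0 past the threshold, with median changes of 0.018, -0.017, -0.062 and -0.18. GC correction was a loess (span 0.3) per library on the GC content of the longest GENCODE M21 transcript, over 13385 genes (96.2%). The scripts were tested on simulated data. Alternatives were other scalings, filters, a pseudocount of 0.1, a replicate block, GC correction, the side of the first component and leaving out each library.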

Additional observations from a re-analysis of the deposited data

How the results depend on the processing

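In every alternative tested in limma, 0 of the factors passed. Over all genes 2 passed, and the count was 16 with scaling to epithelial markers, 1 without a filter, 4 after GC correction, and 1 to 7 when 1 library was left out, with 7 without KO 2 and 1 without KO 1, KO 3, WT 1 or WT 3. Deviations of same-numbered libraries correlated across genes at -0.22, -0.40 and -0.64. In each such pair the KO and WT libraries lay on opposite sides of the first component, so these values cannot decide whether the numbers mark pairs. With the replicate number as a block the count was 0 (656 at an unadjusted p of 0.05), Bicc1 having an adjusted p of 0.088, and 1 with GC correction and the replicate block. The cause of these shifts was not tested.

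On one side of the first component (KO 1, KO 2, WT 3) the median of the factors was 0.023, on the other (KO 3, WT 1, WT 2) it was -0.36, and it ran from -0.26 (without KO 2) to -0.024 (without KO 3) when 1 library was left out. Ptf1a, Sox9 and Gata6 were lower in KO in all alternatives, and Foxa2 in all but the first of these subsets (0.020). In that subset Gata4 (0.076), Pdx1 (0.026), Nr5a2 (0.027), Cdh1 (0.015), Epcam (0.017), Myc (0.048), Esrp2 (0.038) and Grhl2 (0.047) also turned higher in KO. In the second, Nkx6-1 (-0.13), Onecut1 (-0.27) and Cpa1 (-0.031) turned lower. Nkx6-1 turned to -0.13 after GC correction, with or without the replicate block, and to -0.033 with the side as a term. With 1 library left out, changes of these genes ran over 0: Nkx6-1 from -0.11 to 0.27, Onecut1 from -0.13 to 0.31, Gata4 from -0.23 to 0.052, Pdx1 from -0.14 to 0.086, Cdh1 from -0.27 to 0.012, Epcam from -0.24 to 0.019 and Myc from -0.19 to 0.032. In each of the 7 the lowest value came without KO 2, their highest KO library, and the highest without KO 3, their lowest KO library. No scaling moved the median of all genes by over 0.1.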
